A study of Oryctolagus cuniculus with 6 samples.

Results

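The smooth muscle contractile genes examined here were ACTA2, TAGLN, MYL9, CNN1, TPM1, TPM2, CALD1, ACTG2, MYH11 and LMOD1. They were chosen by symbol, all 10 were found among the 22190 genes of the table, and all 10 passed the filter on low counts that left 15029 genes for testing. The samples are RNA-seq libraries of primary limbal stem cells (LSCs) grown out of explants of the rabbit limbus, 3 from fresh and 3 from preconditioned tissue. In the preconditioned group, corneas were stored in liquid nitrogen for 7 days in a DMSO and serum cryomedium to which 10 ng/mL of the inflammatory cytokine IL-1β had been added, and were thawed before 3 mm limbal biopsies were taken and plated. Fresh corneas received neither, and freezing and IL-1β were applied together, so their effects cannot be told apart. The strain, age and donor of each library are not given in the sources used here, so that the p values measure the spread between these libraries, part of which may be technical.

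Smooth muscle cells contract by sliding actin filaments past myosin filaments, and contraction is switched on when the regulatory light chain of myosin is phosphorylated. Tropomyosin, calponin and caldesmon lie along the actin filament and set how it meets myosin. Stromal fibroblasts of an injured cornea take up part of this program and become myofibroblasts, whose usual marker is α-smooth muscle actin, the product of ACTA2. Much of the program is transcribed by SRF together with the myocardin family of coactivators, and TGF-β is its best known inducer.

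Epithelial RNA was abundant in every library. KRT5, a basal epithelial keratin, had 9601 ± 1156 (fresh) and 9320 ± 2234 CPM (preconditioned, SD, n = 3 each), where CPM is the count relative to the TMM-scaled library size. KRT14 and KRT12 were not found under these symbols. Libraries held 31952352 to 34327534 counts. Among all 15029 tested genes, 344 (2.29%) passed 2 cutoffs in edgeR's quasi-likelihood test, a Benjamini-Hochberg adjusted p no higher than 0.05 and a log2 fold change of 1 or more in size. Of these, 163 (1.08%) had more and 181 (1.20%) less RNA after preconditioning, and scaling by library size alone, which shifted the median of all genes from 0.01 to −0.16 on the log2 scale, gave 142 higher and 423 lower. Preconditioned replicate 1 stood apart from the other preconditioned libraries on the first principal component, at 8.13 against 58.3 and 70.4, with the fresh libraries between −53.1 and −41.1.

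None of the 10 contractile genes passed both cutoffs with edgeR, where 2.29% of all tested genes did. TPM2 alone passed them when library size alone was used for scaling or when limma was run on log2(FPKM + 0.1). With DESeq2 the count was also 0, where that tool called 7.78% of all genes (3.62% higher and 4.17% lower in the preconditioned libraries), and 1 gene, TPM2, had an unadjusted p under 0.05 with edgeR, as did 30.6% of all tested genes. The log2 fold changes ran from −1.54 for ACTG2 to 0.98 for ACTA2, with 5 positive and 5 negative (MYH11 and LMOD1 turned negative with library size alone) and a median of −0.19, where the median of all tested genes was 0.01. The median of the 10 genes was 0.45 without fresh replicate 3. Non-overlapping groups were found for 1 of the 10 genes, and for 36.7% of all tested genes. The spread between libraries of the same group was wide for several of these genes. In these bulk libraries, the number of contractile cells and the contractile RNA per cell cannot be told apart.

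**Figure D1:**
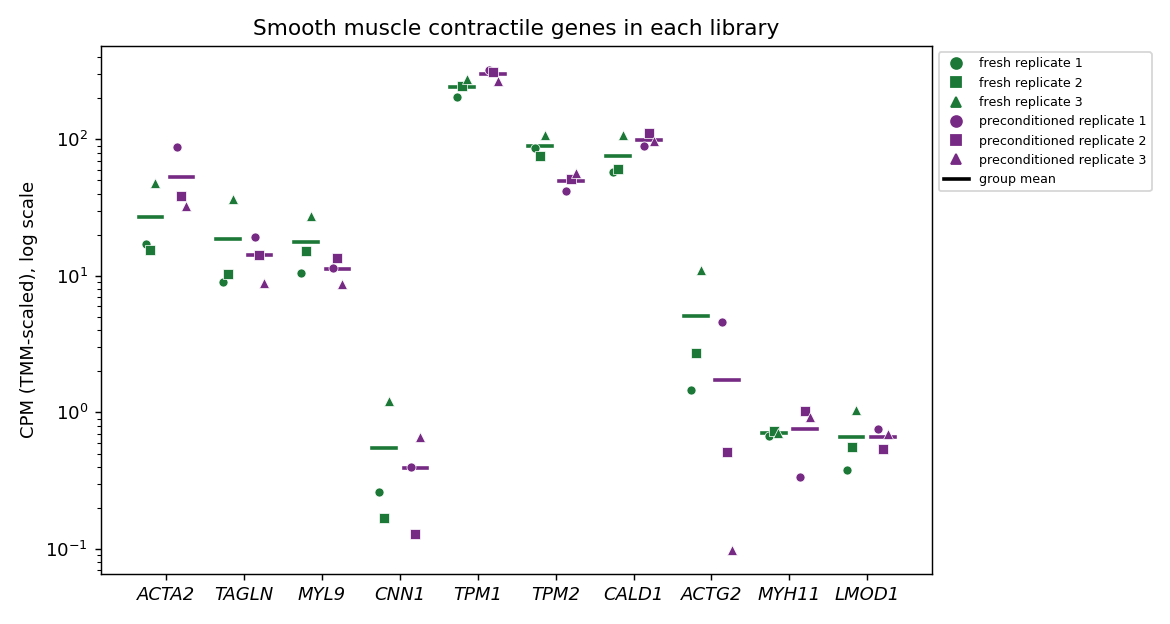
Expression of each contractile gene (x axis) in CPM on a log scale (y axis), with 1 point per library, circles, squares and triangles for replicates 1, 2 and 3, and a bar at the group mean. TPM2 is the only gene of the 10 whose preconditioned points all lie below the fresh ones, and the fresh triangle is the highest fresh point for 9 of the 10 genes.

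To compare genes with each other, the deposited FPKM values were used, which correct for gene length. TPM1 was the most abundant, with a mean of 72.8 FPKM over the 6 libraries, followed by TPM2 (41.0 FPKM), ACTA2 (29.2 FPKM), CALD1 (16.3 FPKM), TAGLN (13.7 FPKM) and MYL9 (12.2 FPKM). ACTG2 had 2.58 FPKM. CNN1, LMOD1 and MYH11, which mark mature smooth muscle most narrowly, had 0.318, 0.240 and 0.11 FPKM. Neighbours in this order mostly overlapped. TPM2 and ACTA2 changed places between the groups, with means of 54.8 and 21.1 FPKM in fresh and 27.2 and 37.3 FPKM in preconditioned libraries. TPM1 lay above TPM2 in every library, and ACTA2 lay above TAGLN in every library, whereas CALD1, TAGLN and MYL9 changed places between libraries. The sum over the 10 genes was 197 ± 64.6 FPKM in fresh and 180 ± 31.5 FPKM in preconditioned libraries (SD, n = 3 each), a difference smaller than either spread, and TPM1 and TPM2 together with ACTA2 made up most of the sum. Without TPM1 and TPM2 the sum was 72.9 ± 46.2 and 76.5 ± 27.9 FPKM, and in CPM the sum over all 10 was 477 ± 122 and 532 ± 54.9 (SD, n = 3 each), so that the preconditioned mean was the higher one in both.

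ACTA2 had 17.0, 15.4 and 48.2 CPM in fresh replicates 1, 2 and 3, and 88.4, 38.5 and 32.4 CPM in preconditioned replicates 1, 2 and 3. The first 2 fresh libraries lay below every preconditioned library, but fresh replicate 3 lay above preconditioned replicates 2 and 3, so that the groups overlapped. Its log2 fold change was 0.98 ± 0.56 (SE), with an adjusted p of 0.28 from edgeR's quasi-likelihood test. The value depended on 2 libraries. Without fresh replicate 3 it was 1.71 (adjusted p = 0.12 in edgeR), and without preconditioned replicate 1 it was 0.39 (adjusted p = 0.65 in edgeR). It was positive in all 14 alternative settings and passed the cutoffs in none of them.

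ACTG2 encodes γ-smooth muscle actin, the isoform of visceral muscle, and was the most variable of the 10 genes. It was measured at 50, 97 and 405 counts in the fresh libraries and at 151, 16 and 3 counts in the preconditioned libraries. In CPM these were 1.45, 2.73 and 11.1 against 4.60, 0.512 and 0.0988. The highest and lowest preconditioned libraries thus differed 46.5-fold, an imprecise value because the lowest had only 3 counts. Fresh replicate 3 was again the highest, and preconditioned replicate 1 lay inside the range of the fresh group while the other preconditioned libraries lay below it. The log2 fold change of −1.54 had a standard error of 1.28 (adjusted p = 0.45 from edgeR). Without preconditioned replicate 1 it was −4.05 (adjusted p = 0.068 in edgeR), and without fresh replicate 3 it was −0.26 (adjusted p = 0.92 in edgeR).

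Both smooth muscle actins were minor among the actins. Actin genes have coding sequences that are nearly alike, so that reads may have been divided between them in the counting, and their values are uncertain for this reason. ACTB, a cytoplasmic actin, held 82.0 ± 1.60% of the summed FPKM of 6 actin genes in fresh and 78.9 ± 2.70% in preconditioned libraries (SD, n = 3 each). ACTA2 held 0.616 ± 0.386% and 1.03 ± 0.560%, and ACTG2 0.114 ± 0.111% and 0.0326 ± 0.0463% (SD, n = 3 each). The 6 genes include LOC100341037 and LOC100008822, which the table describes as cytoplasmic actins and which were added after their values were seen. ACTG1 and ACTC1 were not found under these symbols. ACTA1, the skeletal muscle actin, ranged from 1.01 to 24.6 CPM among fresh and from 2.74 to 7.44 CPM among preconditioned libraries.

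Tropomyosins form a coiled cable along the actin filament, and TPM1 and TPM2 had fold changes of opposite sign. The counts per gene do not separate forms of TPM1 or TPM2, nor muscle from non-muscle cells as their source. TPM2 had 86.5, 74.9 and 107 CPM in the fresh libraries and 41.8, 51.4 and 56.5 CPM in the preconditioned libraries, and the groups did not overlap. It was the contractile gene with the clearest difference, at a log2 fold change of −0.84 ± 0.17 (SE), which is 1.79-fold lower, and an adjusted p of 0.044 from edgeR's quasi-likelihood test. The same cutoff on p was met by 5.08% of all tested genes, and by 2.20% with a lower level after preconditioning. The fold change missed the cutoff of 1, so TPM2 was not counted as differentially expressed. TPM2 was lower in all 14 alternative settings, with log2 fold changes from −1.01 to −0.70, and it passed both cutoffs with library size alone (−1.01, edgeR adjusted p = 0.030) and with limma on log2(FPKM + 0.1) (−1.005, limma adjusted p = 0.037). Its adjusted p in edgeR was 0.126, 0.125 and 0.102 without fresh replicate 1, 2 and 3, and 0.153 and 0.0867 without preconditioned replicate 2 and 3. It stayed under 0.05, at 0.023, without preconditioned replicate 1.

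TPM1 had 204, 247 and 276 CPM in the fresh libraries and 323, 312 and 267 CPM in the preconditioned libraries. Preconditioned replicate 3 lay below fresh replicate 3, and the other preconditioned libraries lay above all fresh ones. Between the groups the log2 fold change was 0.31 ± 0.15 (SE, edgeR adjusted p = 0.20). Within each library, the ratio of TPM2 to TPM1 in FPKM was 0.909, 0.652 and 0.831 in the fresh group and 0.278, 0.353 and 0.455 in the preconditioned group. The means were 0.797 ± 0.132 and 0.362 ± 0.0887 (SD, n = 3 each), and no preconditioned library reached the lowest fresh one. The ratio to TPM1 was lower without overlap for 32.7% of all other tested genes. TPM4, a non-muscle tropomyosin, held 49.0 ± 0.961% of the summed tropomyosin FPKM in fresh and 57.8 ± 2.80% in preconditioned libraries (SD, n = 3 each), while TPM2 held 10.6 ± 1.44% and 5.92 ± 1.44% (SD, n = 3 each). For TPM4 itself the log2 fold change was 0.27 (adjusted p = 0.16 from edgeR). This sum includes LOC100349893, described as a tropomyosin alpha-3 chain and also added after its values were seen.

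TAGLN encodes transgelin, a calponin-related protein that binds actin and is an early marker of smooth muscle. It had 8.96, 10.4 and 36.6 CPM in the fresh libraries and 19.4, 14.2 and 8.89 CPM in the preconditioned libraries. The preconditioned libraries lay within or just below the range of the fresh group. The log2 fold change was −0.40 ± 0.58 (SE, edgeR adjusted p = 0.68), and it changed sign to 0.55 without fresh replicate 3 (adjusted p = 0.37 in edgeR). A second gene, LOC100009332, is also described as transgelin and could have shared reads with TAGLN. It had 36, 80 and 190 counts in the fresh libraries and 128, 58 and 22 in the preconditioned libraries, and thus ranked fresh replicate 3 and preconditioned replicate 1 first and second, as TAGLN did. The summed CPM of both genes was 21.5 ± 17.6 in fresh and 16.3 ± 6.85 in preconditioned libraries (SD, n = 3 each). TAGLN2, the form found outside smooth muscle, held 93.3% to 97.9% of the summed transgelin FPKM in every library.

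CNN1 encodes calponin 1, which inhibits the myosin ATPase and is found in differentiated smooth muscle. It was measured at low counts, with 9, 6 and 44 counts in the fresh libraries and 13, 4 and 20 in the preconditioned libraries. Fresh replicate 3 was the highest of all 6, and the other libraries could not be ordered by group. The log2 fold change of −0.47 ± 0.88 (SE, edgeR adjusted p = 0.75) became 0.86 without fresh replicate 3 (adjusted p = 0.54 in edgeR). CNN2 and CNN3, the calponins of non-muscle cells, held nearly all calponin FPKM, and CNN1 held 0.0525% to 0.436%.

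CALD1 encodes caldesmon, which is made as a long form in smooth muscle and a short form in other cells. The counts per gene do not separate these forms. CALD1 had 57.7, 61.0 and 107 CPM in the fresh libraries and 90.1, 111 and 96.5 CPM in the preconditioned libraries. As for ACTA2, fresh replicates 1 and 2 lay below all preconditioned libraries and fresh replicate 3 lay among them. Its log2 fold change was 0.40 ± 0.25 (SE, edgeR adjusted p = 0.31), and it was 0.74 without fresh replicate 3 (adjusted p = 0.084 in edgeR).

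Of the myosin genes, MYL9 encodes the regulatory light chain of smooth muscle myosin. It had 10.6, 15.1 and 27.6 CPM in the fresh libraries and 11.5, 13.5 and 8.73 CPM in the preconditioned libraries. The preconditioned libraries lay near the lower fresh ones, and the groups overlapped. Between the groups the log2 fold change was −0.66 ± 0.36 (SE, edgeR adjusted p = 0.26), and −0.19 without fresh replicate 3 (adjusted p = 0.69 in edgeR). LOC100346112, which the table describes as a myosin regulatory light polypeptide 9, was expressed at 373 ± 28.2 CPM in fresh and 434 ± 39.4 CPM in preconditioned libraries (SD, n = 3 each). It carried far more counts than MYL9 itself. How reads were shared between both genes is not known, so the level of MYL9, its place among the contractile genes and its ratio to ACTA2 are uncertain. Its log2 fold change was 0.22 (adjusted p = 0.26 from edgeR), opposite in sign to that of MYL9, and neither passed the test.

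MYH11, the heavy chain of smooth muscle myosin, had 23, 26 and 26 counts in the fresh libraries and 11, 32 and 28 in the preconditioned libraries. Its log2 fold change was 0.11 ± 0.50 (SE, edgeR adjusted p = 0.90). MYH9, the main non-muscle heavy chain, made up 93.7% to 95.0% of the FPKM of MYH9, MYH10 and MYH11, and MYH11 made up 0.0310% to 0.107%. LMOD1 encodes leiomodin 1, which starts new actin filaments in smooth muscle. It had 13, 20 and 38 counts in the fresh libraries and 25, 17 and 21 in the preconditioned libraries, a log2 fold change of 0.01 ± 0.49 (SE, edgeR adjusted p = 0.99). With standard errors of 0.49 to 0.88 for CNN1, MYH11 and LMOD1, a difference of the size seen for TPM2 was not detectable.

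**Figure D2:**
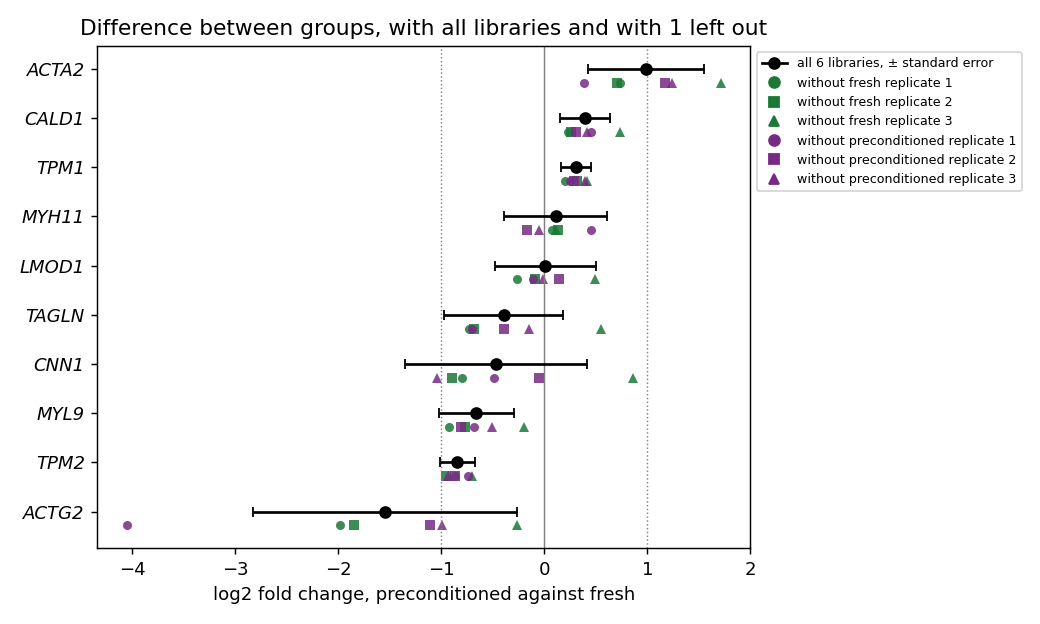
Log2 fold change of each contractile gene, preconditioned against fresh (x axis), with all 6 libraries as black points with standard errors, and below each the value with 1 library left out, coloured by the group of that library with circles, squares and triangles for replicates 1, 2 and 3. Dotted lines mark the cutoffs of −1 and 1. Leaving out fresh replicate 3 moved CNN1 to 0.86 and TAGLN to 0.55, and leaving out preconditioned replicate 1 moved ACTG2 to −4.05.

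Within the fresh group, fresh replicate 3 was the highest fresh library for 9 of the 10 genes, the exception being MYH11, whereas it was the highest for 36.3% of all tested genes. Compared with the mean of the other fresh libraries, it was 5.60-fold higher for CNN1, 5.30-fold for ACTG2, 3.78-fold for TAGLN, 2.98-fold for ACTA2, 2.21-fold for LMOD1, 2.15-fold for MYL9 and 1.81-fold for CALD1. TPM2 and TPM1 were 1.32-fold and 1.22-fold higher. Of 17 tested markers of fibroblasts and keratocytes, 14 were also highest in fresh replicate 3 among the fresh libraries, and the sum of the list was 832, 1275 and 1773 CPM in fresh replicates 1, 2 and 3. Only 1 of 10 limbal and corneal epithelial markers was highest there. The part of stromal cells in the contractile values was not tested.

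In the preconditioned group no library was the highest for more than 5 of the genes. Preconditioned replicate 1 was the highest of its group for 5 genes (ACTA2, TAGLN, TPM1, ACTG2 and LMOD1), preconditioned replicate 2 for 3 (MYL9, CALD1 and MYH11) and preconditioned replicate 3 for 2 (CNN1 and TPM2), where the shares over all tested genes were 39.6%, 26.5% and 33.9%. Preconditioned replicate 1 was 15.1-fold above the mean of the other preconditioned libraries for ACTG2 and 2.49-fold for ACTA2, and lower than that mean for MYH11, TPM2 and CALD1. The sum of the fibroblast and keratocyte markers was 1686, 2907 and 1706 CPM in preconditioned replicates 1, 2 and 3.

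Several contractile genes had a lower ratio to ACTA2 after preconditioning. The ratio of TAGLN to ACTA2 in FPKM was 0.590, 0.754 and 0.849 in the fresh libraries and 0.246, 0.412 and 0.307 in the preconditioned libraries. For MYL9 the ratio to ACTA2 was 0.697, 1.10 and 0.642 in the fresh libraries and 0.146, 0.393 and 0.302 in the preconditioned libraries. Fresh replicate 3, with its 2.98-fold higher ACTA2, stayed above every preconditioned library in both ratios. ACTG2 to ACTA2 was 0.0841, 0.175 and 0.226 against 0.0512, 0.0131 and 0.00300. In all, 5 of the other 9 genes (TAGLN, MYL9, TPM2, ACTG2 and LMOD1) had a lower ratio to ACTA2 in every preconditioned library, and 18.9% of all other tested genes did. LMOD1 was narrowly separated, and the ratios of CNN1, TPM1, CALD1 and MYH11 overlapped between the groups. The ratios were formed after the values were seen and share ACTA2 as denominator, so they are a description and were not tested.

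**Figure D3:**
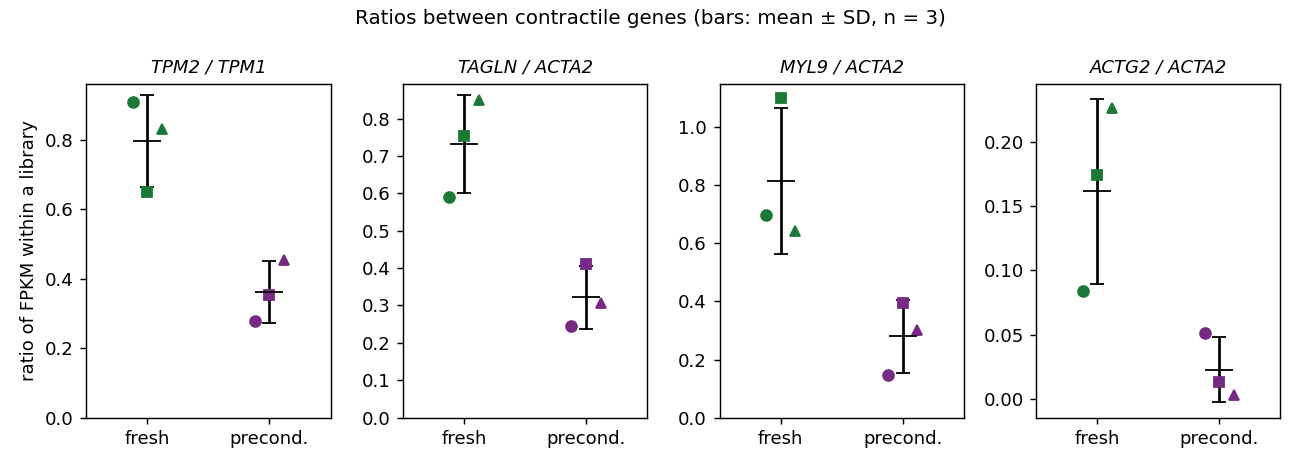
Ratio of FPKM within each library (y axis) for TPM2 to TPM1, TAGLN to ACTA2, MYL9 to ACTA2 and ACTG2 to ACTA2, with circles, squares and triangles for replicates 1, 2 and 3 and bars for the mean ± SD (n = 3). In each panel all preconditioned libraries lie below all fresh ones, as for TAGLN to ACTA2 with at most 0.412 against at least 0.590.

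Outside the contractile genes, ACTA2 was followed most closely across the 6 libraries by LOC100351262 (described as an Arf-GAP with GTPase, ANK repeat and PH domains), EHD4, ASPN, TIMM10B and COMMD5. Pearson's r of log2 CPM was 0.991, 0.989, 0.983, 0.981 and 0.981 among 9020 genes with a mean of at least 10 CPM. These values describe 6 libraries that differ in group as well as in replicate. ASPN encodes asporin, a small leucine-rich proteoglycan of connective tissue. It had 2.58, 3.43 and 13.0 CPM in the fresh libraries and 25.0, 11.03 and 7.28 CPM in the preconditioned libraries. Preconditioned replicate 1 and fresh replicate 3 were the highest, as for ACTA2, which follows from how ASPN was chosen. The log2 fold change of ASPN was 1.18 ± 0.72 (SE, edgeR adjusted p = 0.30), which became 2.26 without fresh replicate 3 and 0.51 without preconditioned replicate 1.

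Of 18 other genes of smooth muscle, 15 were tested, and NEXN was the only one that passed both cutoffs with edgeR, as 2.29% of all tested genes did. NEXN encodes nexilin, an actin-binding protein of muscle and focal adhesions. It had 1.77, 2.64 and 4.21 CPM in the fresh libraries and 10.1, 19.1 and 13.5 CPM in the preconditioned libraries, more than in any fresh library, with a log2 fold change of 2.30 ± 0.39 (SE, edgeR adjusted p = 0.036). Leaving out any library except preconditioned replicate 1 took its adjusted p above 0.05, up to 0.14. FHL1, a LIM protein of muscle, had a log2 fold change of 1.68 ± 0.77 (SE, edgeR adjusted p = 0.19), and 3.20 without fresh replicate 3 (adjusted p = 0.063 in edgeR). With DESeq2, ITGA1 and ITGA8, integrin chains of smooth muscle and fibroblasts, were called as well, which makes 3 of 18 genes against 7.78% of all genes. DES, the intermediate filament of muscle, was at no more than 1 count in any library, and PLN at no more than 3. The median log2 fold change of the list was 0.19.

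Of 8 tested genes for SRF, the myocardin family and their partners, 7 had a negative log2 fold change, with a median of −0.33, and none passed both cutoffs with edgeR, as 2.29% of all tested genes did. Besides MRTFA, MRTFB and FHL2, the negative genes were SCAI (−0.46), KLF4 (−0.19), TEAD3 (−0.15) and TEAD1 (−0.11). The list was not divided by whether a gene raises or lowers SRF activity, so these signs give no direction of it. An unadjusted p under 0.05 was found for 3 of the 8, against 30.6% of all tested genes. MRTFA, a coactivator that actin itself holds out of the nucleus, had 32.9, 34.6 and 39.4 CPM in the fresh libraries and 24.7, 21.3 and 19.3 CPM in the preconditioned libraries, with no overlap. Its log2 fold change was −0.71 ± 0.14 (SE, edgeR adjusted p = 0.044), under the cutoff for size. MRTFB, its close relative, had a log2 fold change of −0.51 ± 0.11 (SE, edgeR adjusted p = 0.049). With any 1 library left out other than preconditioned replicate 1, the adjusted p of both coactivators rose above 0.05 in edgeR, up to 0.154 for MRTFA and 0.177 for MRTFB. FHL2, a LIM protein that is itself a target of SRF, had 64.7, 51.1 and 68.4 CPM against 46.1, 24.0 and 15.8 CPM, a log2 fold change of −1.10 ± 0.37 (SE, edgeR adjusted p = 0.11), and DESeq2 called it, as it did 7.78% of all genes. Without preconditioned replicate 1 it was −1.63 (adjusted p = 0.0068 in edgeR). SRF stood at 24.0 ± 2.96 and 25.1 ± 2.80 CPM (SD, n = 3 each), and MYOCD, the coactivator of muscle cells, was at no more than 3 counts in any library.

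Of 13 tested genes of the non-muscle actomyosin, 8 were positive and 5 negative, the median log2 fold change was 0.05, or −0.12 with library size alone, and none passed both cutoffs with edgeR or DESeq2, where 2.29% and 7.78% of all genes did. An unadjusted p under 0.05 was found for 7 of the 13, against 30.6% of all tested genes. TMOD3, which caps the slow-growing end of actin filaments, had 252 ± 25.9 and 424 ± 36.3 CPM (SD, n = 3 each), and its log2 fold change was 0.75 ± 0.13 (SE, edgeR adjusted p = 0.036). MYH10, a non-muscle myosin heavy chain, had 86.0 ± 3.48 and 62.6 ± 3.29 CPM (SD, n = 3 each), and its log2 fold change was −0.46 ± 0.10 (SE, edgeR adjusted p = 0.046). ACTN1, an actin crosslinker on the smooth muscle list, had a log2 fold change of −0.68 ± 0.12 (SE, edgeR adjusted p = 0.039). For each of these genes the groups did not overlap, as for 36.7% of all tested genes, and none reached the cutoff for size. With any 1 library left out other than preconditioned replicate 1, their adjusted p rose above 0.05 in edgeR, up to 0.145 for TMOD3, 0.168 for MYH10 and 0.148 for ACTN1.

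**Figure D4:**
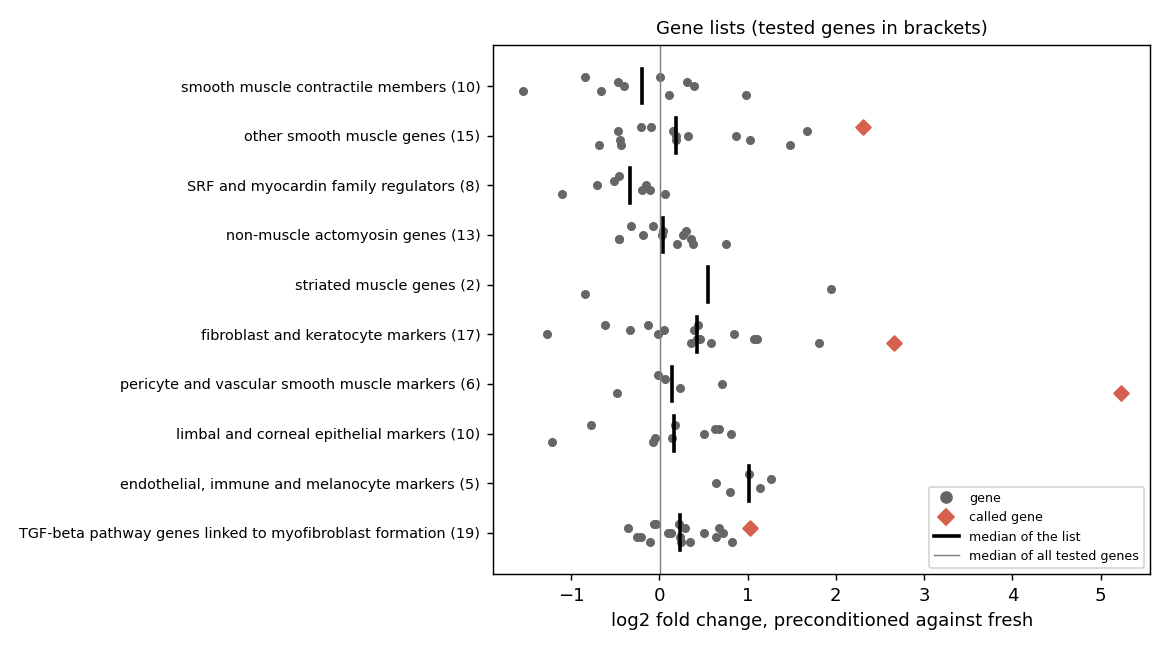
Log2 fold change, preconditioned against fresh (x axis), for the tested genes of each list described (rows, number of genes in brackets), with diamonds for genes that passed both cutoffs, black bars for list medians and a grey line for the median of all tested genes. The contractile genes have no diamond and a median of −0.19, and NEXN, COL1A1, RGS5 and SKIL are the 4 genes that passed.

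Of 19 tested genes of the TGF-β pathway, SKIL was the only one that passed both cutoffs, with edgeR (2.29% of all tested genes) and with DESeq2 (7.78%). SKIL encodes a repressor of SMAD signalling that TGF-β itself induces. It had 34.1, 38.3 and 55.6 CPM in the fresh libraries and 87.9, 100 and 73.8 CPM in the preconditioned libraries, a log2 fold change of 1.03 ± 0.21 (SE, edgeR adjusted p = 0.044), which passed both cutoffs in 5 of 14 alternative settings and, with 1 library left out, only without preconditioned replicate 1. The ligands TGFB1, TGFB2 and TGFB3 had log2 fold changes of 0.29, −0.03 and −0.11 (adjusted p = 0.45, 0.96 and 0.92 from edgeR). TGFB1 ranged from 0.08 (without preconditioned replicate 2) to 0.43 (without fresh replicate 2) with 1 library left out. CCN1 and CCN2, matricellular proteins made downstream of TGF-β and YAP, had log2 fold changes of 0.82 and 0.65 (adjusted p = 0.30 and 0.31 from edgeR). With 1 library left out, CCN1 ranged from 0.50 (without preconditioned replicate 2) to 1.57 (without fresh replicate 3) and CCN2 from 0.30 (without fresh replicate 1) to 1.04 (without fresh replicate 3). Fresh replicate 3 was the highest fresh library for 13 of these 19, where over all tested genes it was so for 36.3%.

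Markers of other cells that can carry contractile RNA were read beside these values. Of 17 tested fibroblast and keratocyte markers, COL1A1 passed both cutoffs with edgeR (2.29% of all tested genes), and COL1A1, FAP and ITGA11 did with DESeq2 (7.78%). With edgeR 12 had a positive and 5 a negative log2 fold change. The median was 0.43, or −0.09 without preconditioned replicate 2 and 0.79 without fresh replicate 3. COL1A1, a chain of type I collagen, had 56.8, 109 and 108 CPM in the fresh libraries and 537, 693 and 505 CPM in the preconditioned ones (log2 fold change 2.66 ± 0.28, SE, edgeR adjusted p = 0.015), and did not pass without fresh replicate 2 or preconditioned replicate 2, with an adjusted p of up to 0.069 in edgeR. COL1A1 and FAP were among upregulated genes that the study itself picked from these libraries for qPCR. The study reported that the qPCR results matched its RNA-seq. The summed level of the list ranged from 832 to 1773 CPM in fresh and 1686 to 2907 CPM in preconditioned libraries. COL1A1, at 91.3 ± 29.8 and 578 ± 100 CPM (SD, n = 3 each), had the largest difference in mean CPM on the list. VIM, a mesenchymal intermediate filament, had a log2 fold change of 0.43, DCN −0.13, LUM 0.44, THY1 −0.33 and PDGFRA 0.59, with adjusted p values from 0.50 to 0.92 (edgeR). VIM and LUM were negative without preconditioned replicate 2, THY1 was positive without preconditioned replicate 1, and DCN was positive without fresh replicate 3 or preconditioned replicate 1 or 3. PDGFRA had a log2 fold change of 0.05 without preconditioned replicate 2 and 1.07 without preconditioned replicate 1. FAP had one of 1.81 ± 0.52 (SE, edgeR adjusted p = 0.076). Of 9 pericyte and vascular smooth muscle markers in the table, 6 were tested. RGS5, a pericyte marker, had 0.956, 0.619 and 0.793 CPM in the fresh libraries and 54.3, 31.8 and 2.86 CPM in the preconditioned libraries. It passed both cutoffs (log2 fold change 5.23 ± 1.04, SE, edgeR adjusted p = 0.045), as 2.29% of all tested genes did. Leaving out fresh replicate 1, 2 or 3 or preconditioned replicate 2 took its adjusted p above 0.05, up to 0.16. RGS5 passed both cutoffs in 6 of 14 alternative settings, with log2 fold changes from 1.98 to 5.77. The other pericyte markers did not pass, with PDGFRB at 17.1 ± 10.9 and 17.0 ± 6.19 CPM (SD, n = 3 each), NOTCH3 at a log2 fold change of 0.07 and HIGD1B at no more than 2 counts in any library. The sum of the list was 272 to 355 CPM in fresh and 367 to 433 CPM in preconditioned libraries. The part of pericytes in the ACTA2 values was not tested.

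Of 18 striated muscle genes listed, 8 were found and 2 were tested, ACTA1 and TNNI1, while the others had no more than 9 counts in any library. TNNI1, a slow-twitch troponin, had 0.327 ± 0.177 and 1.27 ± 0.576 CPM (SD, n = 3 each), and its log2 fold change was 1.95 ± 0.59 (SE, edgeR adjusted p = 0.084). DESeq2 called TNNI1, as it did 7.78% of all genes, and so did edgeR without preconditioned replicate 1. TTN and MYL1 were at no more than 1 count in any library. The sum of the list was 1.64 to 25.2 CPM in fresh, nearly all of the upper value being ACTA1 in fresh replicate 2, and 3.90 to 9.38 CPM in preconditioned libraries. Of 10 tested limbal and corneal epithelial markers none passed both cutoffs with edgeR or DESeq2, where 2.29% and 7.78% of all genes did. An unadjusted p under 0.05 was found for 5 of the 10, against 30.6% of all tested genes. The lowest p values, looked up after the values were seen, were those of PERP, a desmosome protein, with a log2 fold change of 0.68 ± 0.13 (SE, edgeR adjusted p = 0.039), and TP63, a transcription factor of basal and limbal epithelium, with −0.77 ± 0.19 (SE, edgeR adjusted p = 0.059). TP63 was −1.03 without preconditioned replicate 1 (adjusted p = 0.0040 in edgeR), and the adjusted p of PERP exceeded 0.05 with any other library left out, up to 0.148 in edgeR. KRT3, the keratin of differentiated corneal epithelium, had a log2 fold change of −1.21 ± 0.72 (SE, edgeR adjusted p = 0.30) that was −0.25 without fresh replicate 2 and −1.65 without fresh replicate 3, and PAX6, the transcription factor of the eye field, one of 0.81 ± 0.28 (SE, edgeR adjusted p = 0.11), or 1.07 without preconditioned replicate 1 (adjusted p = 0.0060 in edgeR). Their summed level was 12768 to 16346 CPM in fresh and 13065 to 17121 CPM in preconditioned libraries. Of 5 tested endothelial, immune and melanocyte markers all had a positive log2 fold change, with a median of 1.02 that was −0.25 without preconditioned replicate 2. None passed both cutoffs with edgeR, as 2.29% of all tested genes did, while 1 had an unadjusted p under 0.05, against 30.6%. That gene was CD68, a marker of macrophages that other cells also express, with a log2 fold change of 1.14 ± 0.34 (SE, edgeR adjusted p = 0.085). CD68 was also called by DESeq2, as were 7.78% of all genes, and by edgeR without preconditioned replicate 1. PECAM1, of endothelium, had a log2 fold change of 1.27 ± 0.80 (SE, edgeR adjusted p = 0.32), which was 0.18 without preconditioned replicate 2 and 1.77 without preconditioned replicate 1 (adjusted p = 0.90 and 0.027 in edgeR). CDH5, VWF and KDR were not tested, with no more than 8 counts in any library. The mean CPM of VWF and KDR was lower, and that of CDH5 higher, in the preconditioned group. The summed level of the list was 99.3 to 134 CPM in fresh and 123 to 324 CPM in preconditioned libraries, nearly all of it CD68. The melanocyte markers TYR, MLANA and PMEL had no more than 3 counts and DCT no more than 10 in any library.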

How the data were processed

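RNA-seq libraries of rabbit primary LSCs were grouped by sample titles, 3 fresh and 3 preconditioned. The raw counts per gene deposited by the authors came from hisat2 alignments and htseq-count. FPKM values were also deposited by the authors, and each equals the count divided by the library's total and by 1 length per gene. The genome build, annotation and strand setting are not given in the sources used here. The contractile genes and all gene lists were chosen with earlier results of these data known.

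Counts were tested in R 4.3.3 with edgeR 4.0.16 (filterByExpr, TMM, robust quasi-likelihood fit, a 2-group design without covariates) and Benjamini-Hochberg adjustment over 15029 genes. Standard errors were derived from the F statistic. A gene at no more than 3 counts in every library of a group was taken as not detected. All 10 contractile genes and, from each list, the called genes and the 2 with the largest changes were named by rule, with the 5 genes most like ACTA2. Other genes were named after their values were seen. Alternatives were DESeq2 1.42.0, limma 3.58.1 on log2(FPKM + 1) and log2(FPKM + 0.1), other scalings, filters and cutoffs, a replicate block, and leaving out each library. The fits were tested on simulated counts. Sequences and coordinates were not used here, and 1 gene list is not reported here.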

Additional observations from a re-analysis of the deposited data

How the results depend on the processing

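The number of contractile genes past both cutoffs was 0 and became 1, TPM2, with library size alone (log2 fold change −1.01), with limma on log2(FPKM + 0.1) (−1.005) and with no fold change cutoff. It stayed 0 in the other settings, including each fit with 1 library left out. Library size alone moved the median of all tested genes from 0.01 to −0.16. Of the single-gene values under alternatives 15 changed sign, and none of the genes that did so passed the cutoffs in any setting. With 1 library left out CNN1 ran from −1.04 to 0.86 and TAGLN from −0.73 to 0.55, both positive only without fresh replicate 3. LMOD1 was −0.16 with library size alone and −0.0252 and −0.0528 with limma on log2(FPKM + 1) and log2(FPKM + 0.1), and −0.27 to 0.50 with 1 library left out, with negative values of −0.27, −0.09, −0.11 and −0.01. MYH11 was −0.0681 with library size alone, −0.0077 and −0.0678 with the same limma fits, −0.0095 with the replicate block, and −0.16 to 0.46 with 1 library left out, with negative values of −0.16 and −0.05. Among all tested genes, the 344 calls became 1190 with DESeq2, 565 with library size alone, 521 with limma on log2(FPKM + 0.1), 763 with no fold change cutoff, 24 with glmTreat, 30 with the replicate block, and 14 to 1546 with 1 library left out, the most without preconditioned replicate 1. Of the other listed genes, the 4 calls became 11 with DESeq2, 1 with the replicate block, 2 with each limma fit, and 0 to 12 with 1 library left out, the most again without preconditioned replicate 1. These alternatives for the listed genes, except DESeq2 and library size alone, were chosen after seeing the data. The replicate block gave TPM2 a log2 fold change of −0.84 with an adjusted p of 0.087 in edgeR. Deviations of libraries with the same number had a mean correlation of −0.083 across genes, and those of other pairs ran from −0.19 to 0.22. With 3 libraries per group and unknown donors, this cannot show whether the numbers pair them. CNN1, MYH11 and LMOD1 had 4 to 44 counts per library, and how much of their standard errors depth and the spread between libraries each make up was not tested. The cause of these changes was not tested.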
